A study of Homo sapiens with 183 samples.

Results

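The S100 proteins are small proteins of the EF-hand family, most of which bind calcium. The mRNAs of 10 of them were followed across the study: S100A2, S100A4, S100A6, S100A8, S100A9, S100A10, S100A11, S100A14, S100A16 and S100P. These members were taken by name, and all 10 have a row among the 19875 gene names of each of the 8 expression tables. Most S100 proteins act as dimers that change shape on binding calcium and then hold partner proteins, and some also work outside the cell as signals. S100A8 and S100A9 form calprotectin, an alarmin abundant in neutrophils and also made by squamous epithelium under stress. S100A10 and S100A11 bind annexins, S100A4 binds non-muscle myosin, S100A6 binds the CacyBP protein, S100A2 is a partner of p53 made by basal epithelial cells, and S100P is made by many pancreatic cancers and binds ezrin. S100A14 is an epithelial member, and the partners of S100A14 and S100A16 are less well known.

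The study asked how the transcription factor KLF5 and its cofactors RUVBL1 and RUVBL2, a pair of AAA+ ATPases, control lineage programmes in pancreatic ductal adenocarcinoma (PDAC). Poly-A RNA was measured in 183 libraries of 59 groups, all from established human cancer lines. Cas9-expressing PDAC cells received sgRNAs and were collected on day 5: AsPC-1 and SUIT-2 (classical), T3M-4 and BxPC-3 (basal-like) and CFPAC-1. The sgRNAs were sgKLF5 in all 5 of these lines, sgRUVBL1, sgRUVBL2, sgCDK1 and sgRpa3 in AsPC-1, T3M-4, BxPC-3 and CFPAC-1, and sgSERPINB5 and sgCHD4 in AsPC-1, each set against sgRosa, which targets the ROSA26 locus. AsPC-1 and T3M-4 cells carrying an empty lentiviral vector (Lv-Empty), RUVBL1_A62T or RUVBL2_dF109 received CB-6644, an inhibitor of the RUVBL1 and RUVBL2 ATPases, or DMSO for 24 h. Parental T84 (colon cancer), A375 (melanoma), H1048 (small-cell lung cancer) and RH30 (rhabdomyosarcoma) cells received the same treatments for 24 h. Knockouts used pooled cells, with a pair of independent sgRNAs or more listed for KLF5, RUVBL1, RUVBL2, SERPINB5, CHD4 and ROSA26 and 1 each for CDK1 and RPA3. The labels do not say which library holds which sgRNA, so a p-value measures the spread between libraries, which may in part be technical.

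Values are TPM (transcripts per 1000000), a share of all transcripts corrected for transcript length, so the levels of different members can be set side by side. Each library adds up to 1000000 TPM, so its read depth is unknown, and between 11292 and 14024 genes reached 1 TPM in a library. Changes are differences of log2(TPM + 1), tested with limma within 1 line and 1 experiment. Genes averaging 1 TPM or more in the libraries fitted were tested, and a call needs an adjusted p under 0.05 across all of them. Of the 550 pairs of member and comparison, 495 passed that filter, and 228 of these passed the threshold. Most pairs that failed it were of S100A8 and S100A9, near 0 in most lines. S100A11, S100A14 and S100P were each tested in 3 of the 4 lines T84, A375, H1048 and RH30.

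The lines carried their markers in part. Control libraries of BxPC-3 and T3M-4 held the basal keratin KRT17 at 7876 and 2543 TPM (experiment 2), AsPC-1 and SUIT-2 held HNF4A at 70.2 (experiment 3) and 17.6 TPM, T84 held CDX1 at 136.7 TPM, H1048 held POU2F3 at 476 TPM and RH30 held MYOD1 at 736 TPM. A375 held SOX10 at 234.9 TPM, but the pigment genes PMEL and MLANA were at 0.914 and 1.23 TPM. The sum of 4 classical markers (HNF4A, TFF1, TFF2 and FA2H) lay between 102 and 117 TPM in AsPC-1 controls (experiment 3). It lay between 19.3 and 57.1 TPM in SUIT-2, 44.3 and 62.9 in BxPC-3 and 42.7 and 70.8 in T3M-4 (experiment 2 of both). That sum did not set SUIT-2 apart from the basal-like lines. RUVBL1 and RUVBL2 mRNA fell in every knockout of either gene, by 1.14 to 1.87 on the log2 scale, and SERPINB5 by 1.35. The log2 fold change of KLF5 mRNA in the KLF5 knockouts lay between -0.41 and 0.78, and that of CHD4 in its knockout was 0.28, and an edited gene can still give mRNA, so these levels do not check the labels.

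Some libraries stood apart or went against their labels. In CFPAC-1, CDK1 mRNA was at 81.0 and 91.9 TPM in the libraries labelled sgRpa3 but at 194 and 207 TPM in those labelled sgCDK1, against 209, 206, 209 and 236 TPM in sgRosa. The CFPAC-1 library labelled sgRosa replicate 2 resembled a library labelled sgKLF5 more than any other library of the line (r = 0.52 of deviations from the line's mean). By this measure sgRosa replicates 3 and 4 of CFPAC-1 were also nearest to other groups, to libraries labelled sgCDK1 (r = 0.53) and sgRUVBL1 (r = 0.24). In T3M-4 experiment 1, sgKLF5 replicate 2 had a median correlation of 0.938 with its group, the lowest of all libraries. In SUIT-2, sgRosa replicate 1 and sgKLF5 replicate 4 followed with 0.957 and 0.958. For CFPAC-1 sgRosa replicate 2 and the T3M-4 and SUIT-2 libraries named here, the counts of calls of their comparisons are given with and without them. No 2 libraries held identical values.

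Of the 10 members, 9 lie on chromosome 1 between positions 151982915 and 153616325 of GRCh38, the S100 cluster, and S100P lies on chromosome 4 (chr4:6693878-6697170). RefSeq promoter windows of GRCh38.p14, from 250 bases before to 50 after each annotated start, were found for all 10 members, 14 windows in all. The binding letters of KLF and SP factors (CCNCNCCC on either strand) occur in 11 of these windows, from 9 members, and in 56.2% of all 35116 windows in the reference. The windows of 4 members are shown because their mRNAs moved in different directions after KLF5 knockout: S100A9 and S100A8, which rose in T3M-4 and BxPC-3, S100A11, which fell in all 8 comparisons, and S100P, which fell in 4 of 8. They cover chr1:153357604-153357903 (plus strand), chr1:153391024-153391323 (minus strand), chr1:152036955-152037254 (minus strand) and chr4:6693628-6693927 (plus strand), each 300 bases, written 5′ to 3′ on the strand of the gene with the KLF and SP box in capitals.
S100A9: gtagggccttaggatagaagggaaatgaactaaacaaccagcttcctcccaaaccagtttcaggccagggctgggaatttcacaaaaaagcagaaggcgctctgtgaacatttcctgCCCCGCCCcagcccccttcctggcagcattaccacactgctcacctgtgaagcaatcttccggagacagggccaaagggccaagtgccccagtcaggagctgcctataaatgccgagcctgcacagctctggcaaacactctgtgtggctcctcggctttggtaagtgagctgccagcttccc
S100A8: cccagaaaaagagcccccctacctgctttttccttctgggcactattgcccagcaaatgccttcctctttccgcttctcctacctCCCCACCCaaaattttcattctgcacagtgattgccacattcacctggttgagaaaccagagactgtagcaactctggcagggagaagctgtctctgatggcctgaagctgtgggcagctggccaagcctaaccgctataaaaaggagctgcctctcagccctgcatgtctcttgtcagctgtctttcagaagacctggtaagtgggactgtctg
S100A11: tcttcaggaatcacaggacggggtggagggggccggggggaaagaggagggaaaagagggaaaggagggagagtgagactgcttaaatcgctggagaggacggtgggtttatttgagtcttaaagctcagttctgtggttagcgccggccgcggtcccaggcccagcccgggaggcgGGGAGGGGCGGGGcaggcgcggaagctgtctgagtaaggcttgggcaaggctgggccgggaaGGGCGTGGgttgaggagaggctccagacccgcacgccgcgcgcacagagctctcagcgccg
S100P: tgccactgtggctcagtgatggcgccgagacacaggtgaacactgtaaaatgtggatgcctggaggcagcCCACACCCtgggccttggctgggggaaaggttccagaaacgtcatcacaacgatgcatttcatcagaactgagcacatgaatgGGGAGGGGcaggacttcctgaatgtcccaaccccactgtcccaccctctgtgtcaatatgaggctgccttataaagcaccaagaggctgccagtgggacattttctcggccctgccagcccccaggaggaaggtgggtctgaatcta

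The S100A9 window holds 1 box, at -133 from the start, and this S100A8 window also holds 1, at -165, while the other two S100A8 windows hold 0 and 2. The S100A11 window holds 3 boxes, of which those at -73 and -68 share bases, and the S100P window holds 2. A box was thus present in windows of members that rose and of members that fell in some or all comparisons. S100A4 was the member with no box in its window. The AP-1 letters TGANTCA occurred in 1 window, that of S100A2 at -52, against 7.71% of all windows. These are matches of letters, with no measurement of binding.

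In control libraries the members fell into genes that nearly every line expressed and genes that marked certain lines (levels across tables were normalized per library and are set side by side without a test). S100A6 was among the highest, with 10353 ± 764 TPM in T84, 9138 ± 3148 in CFPAC-1, 5725 ± 296 in A375, 5456 ± 1012 in SUIT-2, 3972 ± 211 in T3M-4, 3772 ± 77.0 in AsPC-1, 2265 ± 107 in BxPC-3 and 844 ± 44.0 in RH30 (mean ± SD, n = 4 each). The means of T84 and CFPAC-1, the top of that order, lay within the SD of CFPAC-1, those of A375 and SUIT-2 within that of SUIT-2, and those of T3M-4 and AsPC-1 within that of T3M-4. S100A10, S100A11 and S100A16 shared this broad pattern, and their means in AsPC-1 experiment 3 were 1909 ± 82.6, 2112 ± 84.4 and 465.7 ± 19.3 TPM. H1048 was the exception among the 9 lines, with S100A6 at 1.43 ± 0.575, S100A11 at 0.298 ± 0.238 and S100A10 at 13.9 ± 0.954 TPM.

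**Figure D1:**
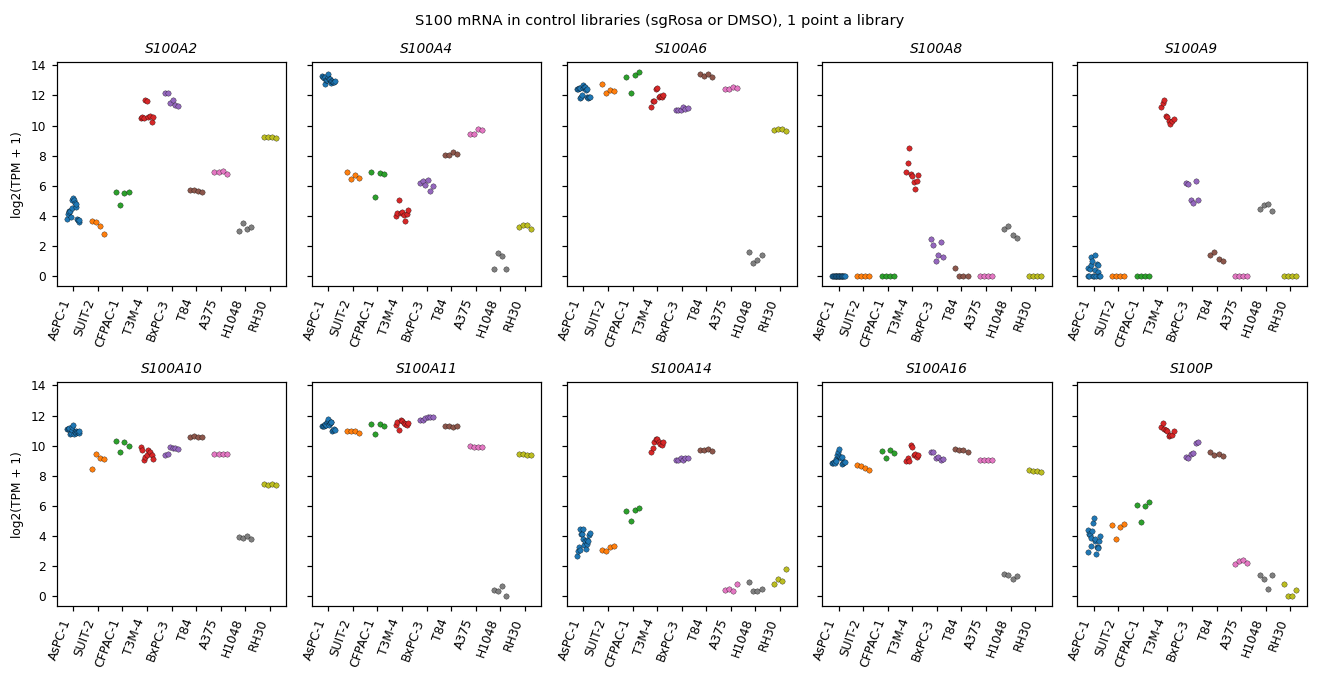
Levels of the 10 S100 mRNAs in the control libraries (sgRosa or DMSO) of 9 lines, as log2(TPM + 1) on the vertical axis, 1 point a library. S100A6, S100A10, S100A11 and S100A16 were high in every line but H1048, S100A8 and S100A9 were high in T3M-4, and S100A4 was highest in AsPC-1.

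S100A2, S100A14 and S100P were high in the basal-like lines. S100A2 reached 2845 ± 383 TPM in BxPC-3 and 1456 ± 183 in T3M-4 (experiment 2), 593 ± 8.07 in RH30 and 119 ± 5.62 in A375. It was at 50.4 ± 2.15 in T84, 40.9 ± 10.3 in CFPAC-1, 12.1 ± 0.674 in AsPC-1, 9.40 ± 2.54 in SUIT-2 and 8.42 ± 1.504 in H1048. The AsPC-1 values in this paragraph are of experiment 3. Its sgRosa libraries of experiments 1 and 2 held more S100A2, as given below. T84 and CFPAC-1 were neighbours within the SD of CFPAC-1, as were SUIT-2 and H1048 within that of SUIT-2. S100P reached 1724 ± 166 TPM in T3M-4, 942 ± 279 in BxPC-3 and 689.6 ± 60.2 in T84, and 58.3 ± 20.5 in CFPAC-1, 22.0 ± 6.21 in SUIT-2 and 10.9 ± 3.33 in AsPC-1. S100A14 had the same leading lines, with 1145 ± 76.7 TPM in T3M-4, 832 ± 24.1 in T84 and 564 ± 18.7 in BxPC-3. S100A4 was the reverse, at 7838 ± 262 TPM in AsPC-1, 773 ± 94.1 in A375, 276 ± 14.9 in T84, 99.0 ± 15.9 in SUIT-2, 96.1 ± 39.9 in CFPAC-1, 65.8 ± 14.4 in BxPC-3 and 16.1 ± 3.47 in T3M-4. SUIT-2 and CFPAC-1 did not differ beyond the spread in CFPAC-1.

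The calprotectin genes were the most restricted. S100A9 stood at 1264 ± 105 TPM in T3M-4, 42.7 ± 24.2 in BxPC-3 and 23.1 ± 3.53 in H1048, and S100A8 at 77.8 ± 19.8 TPM in T3M-4 and 6.79 ± 1.84 in H1048. In BxPC-3 the S100A8 libraries held 1.04, 1.64, 3.70 and 1.38 TPM. In SUIT-2, CFPAC-1, A375 and RH30 both were listed at 0 in every control library. S100A9 was above S100A8 in each control library of T3M-4, BxPC-3 and H1048.

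The levels also differed between experiments on 1 line. T3M-4 sgRosa libraries held S100A2 at 3317 and 3242 TPM in experiment 1 and 1543, 1595, 1189 and 1496 in experiment 2. Changes are for that reason read only within an experiment.

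KLF5 knockout lowered most S100 mRNAs and raised the calprotectin pair. Over 8 comparisons with sgRosa in 5 lines, 72 pairs of member and comparison were tested, of which 45 fell and 9 rose. Of all genes tested, 1% to 13.6% fell and 2.94% to 23.4% rose in these comparisons. The 45 include the fall of S100P in SUIT-2, which passed the filter only through the sgRosa libraries. S100A11 fell in all 8 comparisons, S100A14 in 7, S100A6, S100A10 and S100A16 in 6 each, S100A4 in 5, S100P in 4 and S100A2 in 3. S100A8 and S100A9 rose in each of the 4 comparisons in which they could be tested, those of T3M-4 and BxPC-3, and S100A4 rose in 1 of 8. In such bulk libraries, fewer cells that express a gene and less of its mRNA per cell cannot be told apart.

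**Figure D2:**
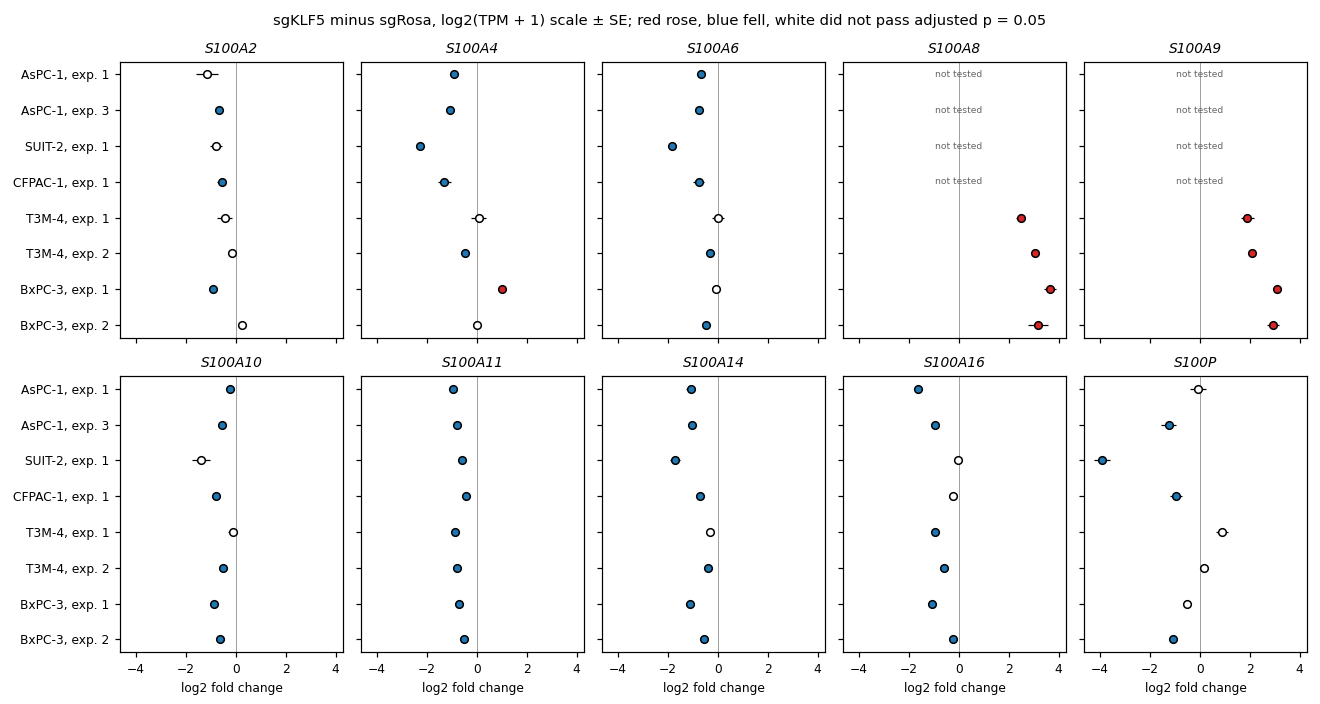
Change of each S100 mRNA after KLF5 knockout (sgKLF5 minus sgRosa, log2(TPM + 1) scale, bars are SE) in 8 comparisons of 5 lines. S100A11 lay below 0 in all 8, between -0.95 and -0.44, and S100A8 and S100A9 lay between 1.91 and 3.65 in T3M-4 and BxPC-3.

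S100A8 and S100A9 gave the largest rises. In T3M-4 experiment 2, S100A8 was at 615, 607, 628 and 675 TPM in the sgKLF5 libraries and 75.9, 54.4, 78.4 and 103 in sgRosa. S100A9 was at 5147, 4954, 5856 and 5646 TPM and 1279, 1124, 1276 and 1378 in the same order. The groups did not overlap for either gene. The log2 fold changes were 3.04 (SE 0.13, adjusted p = 1.26e-11) and 2.09 (SE 0.12, adjusted p = 5.41e-10). In this comparison 2 of 10 members rose and 6 fell, where 23.4% of all genes tested rose and 11.2% fell, and the median log2 fold change of the members tested was -0.36, against 0.10 for all genes. The S100A4 call of this comparison (-0.48) was lost when sgRosa replicate 4 or any of 3 sgKLF5 libraries was left out.

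In BxPC-3 experiment 2 the calprotectin genes started lower and also rose. S100A8 was at 17.5, 25.9, 28.8 and 26.4 TPM after sgKLF5 and 1.04, 1.64, 3.70 and 1.38 after sgRosa, a log2 fold change of 3.18 (SE 0.40, adjusted p = 9.27e-06). S100A9 was at 257, 325, 296 and 324 and 32.0, 27.5, 78.9 and 32.6 TPM, a log2 fold change of 2.91 (SE 0.24, adjusted p = 6.69e-08). One sgRosa library, replicate 3, was high for both genes but still below every sgKLF5 library, and without it the values were 3.43 and 3.25. Here 2 of 10 members rose and 6 fell, where 21% of all genes tested rose and 13.6% fell, and the median log2 fold change of the members tested was -0.36, against 0.05 for all genes.

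Experiment 1 of both lines, with its own libraries, gave the same direction. In T3M-4, S100A8 was at 500.2, 778, 581 and 547 TPM against 112 and 101 (2.47, SE 0.19, adjusted p = 0.000672), and S100A9 at 4879.9, 9410.4, 5208 and 4857 against 1562 and 1549 (1.91, SE 0.27, adjusted p = 0.00726). Replicate 2 of sgKLF5 was the highest, and without it the log2 fold changes were 2.34 and 1.68. With only 2 sgRosa libraries the S100A9 call was lost when either was left out (adjusted p = 0.104 and 0.106). In this comparison 2 members rose and 2 fell of 10, where 3.26% of all genes tested rose and 2.46% fell, and without replicate 2 the counts were 3 and 4. All genes had a median of -0.22 here, and with median-of-ratios scaling both falls, those of S100A11 and S100A16, lost their calls (adjusted p = 0.316 and 0.238), so that 2 rose and none fell. The added rise was that of S100P, whose libraries held 3706, 5619, 3054 and 3235 TPM against 2077 and 1977.

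In BxPC-3 experiment 1, S100A8 was at 46.3, 51.8, 72.7 and 76.8 TPM against 4.63 and 3.28 (3.65, SE 0.23, adjusted p = 5.51e-06) and S100A9 at 497, 556, 760.3 and 702 against 73.0 and 69.1 (3.11, SE 0.15, adjusted p = 1.27e-06). All 4 sgKLF5 libraries lay above both sgRosa libraries for both genes. In that comparison 3 of 10 members rose and 5 fell, where 8.09% of all genes tested rose and 8.1% fell, and the median log2 fold change of the members tested was -0.61, against -0.02 for all genes. The third to rise was S100A4, at 124, 149, 163 and 179.8 TPM against 72.4 and 77.9 (1.01, SE 0.14, adjusted p = 0.000636). S100A4 gave 0.01 (adjusted p = 0.975) in BxPC-3 experiment 2, where its libraries overlapped those of sgRosa.

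Myeloid cells are the best-known source of calprotectin, and the sum of 5 myeloid markers (PTPRC, CD14, LYZ, ITGAM and CSF1R) was compared in the same libraries. It lay between 13.5 and 16.2 TPM in T3M-4 sgKLF5 libraries of experiment 2 and between 15.6 and 17.8 TPM in sgRosa, and between 4.90 and 7.71 against 5.24 to 9.67 TPM in BxPC-3. In experiment 1 it lay between 9.56 and 14.002 against 18.6 to 20.6 TPM in T3M-4 and between 4.56 and 6.41 against 4.31 to 7.13 TPM in BxPC-3. CSF1R was under 1 TPM in every one of these libraries, and ITGAM reached at most 1.25 TPM in experiment 2. Other marker sums were lower after sgKLF5. In experiment 2 that of 5 epithelial markers lay between 3659 and 3829 against 6045 to 6399 TPM in T3M-4. In BxPC-3 it lay between 7218 and 7748 against 9582 to 10364 TPM. That of 3 basal markers lay between 1007 and 1161 against 2488 to 3247 and between 5535 and 7286 against 10811 to 12143 TPM. Whether myeloid cells had a part in the rises was not tested. The S100A8 gene overlaps S100A7A in the RefSeq annotation, and the counting is not stated to use strand. S100A7A was at or under 0.163 TPM in every library, and its part in the result was not tested.

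S100A11, which binds annexin A1, was the steadiest of the genes that fell. Its libraries in AsPC-1 experiment 3 held 1091, 1186, 1306 and 1221 TPM after sgKLF5 and 2019, 2145, 2212 and 2072 after sgRosa (-0.82, SE 0.05, adjusted p = 6.65e-10). In T3M-4 experiment 2 they held 1510.4, 1603, 1640.2 and 1627 against 2898, 2830.5, 2627 and 2859 (-0.81, SE 0.05, adjusted p = 1.31e-09), and in BxPC-3 experiment 2 2520.1, 2644, 2751 and 2726 against 3712, 3809.6, 3860.2 and 3846 (-0.52, SE 0.07, adjusted p = 1.46e-05). None of these 3 pairs of groups overlapped. The fall was -0.95 in AsPC-1 experiment 1, -0.87 in T3M-4 experiment 1, -0.70 in BxPC-3 experiment 1, -0.59 in SUIT-2 and -0.44 in CFPAC-1. The T3M-4 experiment 1 call was lost with median-of-ratios scaling (-0.61, adjusted p = 0.316) and when either sgRosa library was left out (adjusted p = 0.203 and 0.189), and that of CFPAC-1 with the same scaling (-0.31, adjusted p = 0.106).

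In AsPC-1 all 8 members that could be tested fell in experiment 3, where 15.4% of all genes tested rose and 12.3% fell, and the median log2 fold change of the members tested was -0.89, against 0.02 for all genes. S100P held 4.61, 4.49, 6.31 and 1.45 TPM against 8.50, 8.04, 11.7 and 15.2 (-1.25, SE 0.29, adjusted p = 0.00294). S100A4, the highest S100 mRNA of this line, held 3511, 3576, 3362 and 4311 TPM against 8051, 7659.5, 7567 and 8073 (-1.09, SE 0.08, adjusted p = 4.29e-09). S100A14 and S100A16 fell by 1.03 and 0.96, S100A6 by 0.77, S100A2 by 0.67 and S100A10 by 0.57. The sgKLF5 and sgRosa libraries did not overlap for any of these 8 members, which is a description, since the same share was not computed over all genes.

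AsPC-1 experiment 1, with 6 sgKLF5 and 2 sgRosa libraries, gave 6 members that fell and none that rose, where 17.1% of all genes tested rose and 8.81% fell. S100A16 fell most, from 762 and 864 TPM to a lowest, median and highest of 226, 255 and 291 (-1.63, SE 0.10, adjusted p = 1.32e-06). S100A2 had values of 8.93, 12.5 and 42.9 TPM against 32.6 and 35.7, and its change of -1.15 did not pass (adjusted p = 0.0788). The highest of these libraries, sgKLF5 replicate 6, was also the highest for S100P at 62.4 TPM. Without it S100A2 was called (-1.45, adjusted p = 0.000166), and S100P, at -0.08 with it and -0.29 without it, was not.

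SUIT-2 gave the largest fall of a member among the 8 KLF5 comparisons, that of S100P. S100P held 0.33, 0.611, 0 and 1.17 TPM after sgKLF5 and 24.97, 12.9, 23.4 and 26.7 after sgRosa (log2 fold change -3.92). It passed the filter only through the sgRosa libraries, so this value is a description without a test, though S100P is still counted among the members that fell. S100A4 held 16.5, 19.6, 21.6 and 20.4 against 120.1, 84.9, 102 and 88.7 TPM (-2.28, SE 0.16, adjusted p = 0.000159), and S100A6 1362, 1473, 1434 and 1832 against 6922, 4627, 5270.2 and 5005 TPM (-1.83, SE 0.15, adjusted p = 0.000255). The groups of all 3 genes were far apart. S100A14 fell by 1.73 at a low level, from 7.50, 6.91, 8.56 and 9.26 to 0.984, 1.83, 2.25 and 1.98 TPM. S100A16, at 393, 386, 322 and 393 against 422, 409.6, 371 and 336 TPM, overlapped and gave -0.04 (adjusted p = 0.88). In total 5 of 8 members fell and none rose, where 2.94% of all genes tested rose and 1% fell, and the median log2 fold change of the members tested was -1.56, against 0.18 for all genes. Without sgRosa replicate 1 the count of falls was 6 and the log2 fold changes of S100P, S100A4 and S100A6 were -3.84, -2.18 and -1.71. Without sgKLF5 replicate 4 the count was 5 and the same values were -4.11, -2.30 and -1.92.

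In CFPAC-1, with 3 sgKLF5 and 4 sgRosa libraries, 7 of 8 members fell and none rose, where 3.26% of all genes tested rose and 13% fell, and the median log2 fold change of the members tested was -0.73, against -0.11 for all genes. S100A4 held 36.5, 34.7 and 33.3 TPM against 123, 36.9, 116 and 109, and S100P 29.7, 20.9 and 33.5 against 64.7, 28.8, 63.4 and 76.3. The library labelled sgRosa replicate 2, the second value of each control group, lay near the sgKLF5 libraries for both genes. With it the log2 fold changes were -1.30 (SE 0.28, adjusted p = 0.00765) and -0.97 (SE 0.24, adjusted p = 0.0149), and without it -1.71 (adjusted p = 3.49e-09) and -1.27 (adjusted p = 1.25e-05). Without it all 8 members fell, S100A6 by 1.07, S100A10 by 0.95, S100A14 by 0.89, S100A2 by 0.77, S100A11 by 0.60 and S100A16 by 0.33. With all 4 controls, the calls of S100A2, S100A6, S100A11 and S100P were lost when some of the other libraries were left out one at a time (adjusted p up to 0.133, 0.0732, 0.0765 and 0.0771). When only sgKLF5 and sgRosa libraries were fitted, 6 of the 7 calls were lost, that of S100A10 being left (adjusted p of the others between 0.0503 and 0.0957), and with median-of-ratios scaling 4 members fell.

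The size of the KLF5 effect differed between lines for 7 of the 8 members other than S100A8 and S100A9 (limma F test over the changes in AsPC-1 experiment 3, SUIT-2, T3M-4 experiment 2, BxPC-3 experiment 2 and CFPAC-1), where 41.3% of all genes tested did. S100A8 and S100A9 are left out of this count, since they were at 0 TPM or near it in 3 of the lines, where no change could be seen. S100P had the lowest adjusted p of these (1.53e-08), with -3.92 in SUIT-2, -1.25 in AsPC-1, -1.06 in BxPC-3, -0.97 in CFPAC-1 and 0.15 in T3M-4, of which the last did not pass. The SUIT-2 value, a description without a test of its own, enters this F test. Whether S100P differs between the other lines alone was not tested. S100A4, S100A6 and S100A16 had adjusted p = 5.52e-06, 8.48e-06 and 2.93e-06. S100A11 was close to the threshold (adjusted p = 0.0387) and lost its call with no filter (0.0525) and with the replicate block (0.0863). S100A10 did not pass (adjusted p = 0.122), but did with median-of-ratios scaling (0.00719). Without the CFPAC-1 and SUIT-2 libraries that stood apart, BxPC-3 sgRosa replicate 3 and T3M-4 sgRosa replicate 4, an alternative chosen after seeing the data, all 8 passed, S100A10 among them (adjusted p = 0.00529), where 58.1% of all genes did.

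Knockout of the cofactors RUVBL1 and RUVBL2 gave called members in both directions. Some comparisons had a larger share of all genes called than those of sgKLF5. Over 9 comparisons with sgRosa 80 pairs were tested, of which 18 fell and 13 rose, and the comparisons of 1 line and experiment share their sgRosa libraries. In those with a called member 7.67% to 37.3% of all genes fell and 6.54% to 45.9% rose. In the others, sgRUVBL2 in BxPC-3 and CFPAC-1, 9.76% and 12.1% passed in either direction. The count is therefore not read against that of sgKLF5. T3M-4 was the line with most changes: 6 of 10 members fell and 2 rose after sgRUVBL1, where 45.9% of all genes tested rose and 14.6% fell, and 6 fell and 3 rose after sgRUVBL2, where 39.3% of all genes tested rose and 15.2% fell. S100A2, the basal epithelial member, held 567, 513 and 587 TPM after sgRUVBL1 and 760.0, 558, 624.7 and 639 after sgRUVBL2, against 1543, 1595, 1189 and 1496 in sgRosa. All 7 knockout libraries lay below all 4 controls, and the log2 fold changes were -1.38 (SE 0.13, adjusted p = 1.35e-07) and -1.17 (SE 0.12, adjusted p = 3.42e-07). S100A14 also fell in both (-0.81 and -0.62), as did S100A6, S100A10, S100A11 and S100A16, by 0.23 to 0.40. For all 10 members the medians were -0.26 and -0.24, against 0.25 and 0.19 for all genes.

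**Figure D3:**
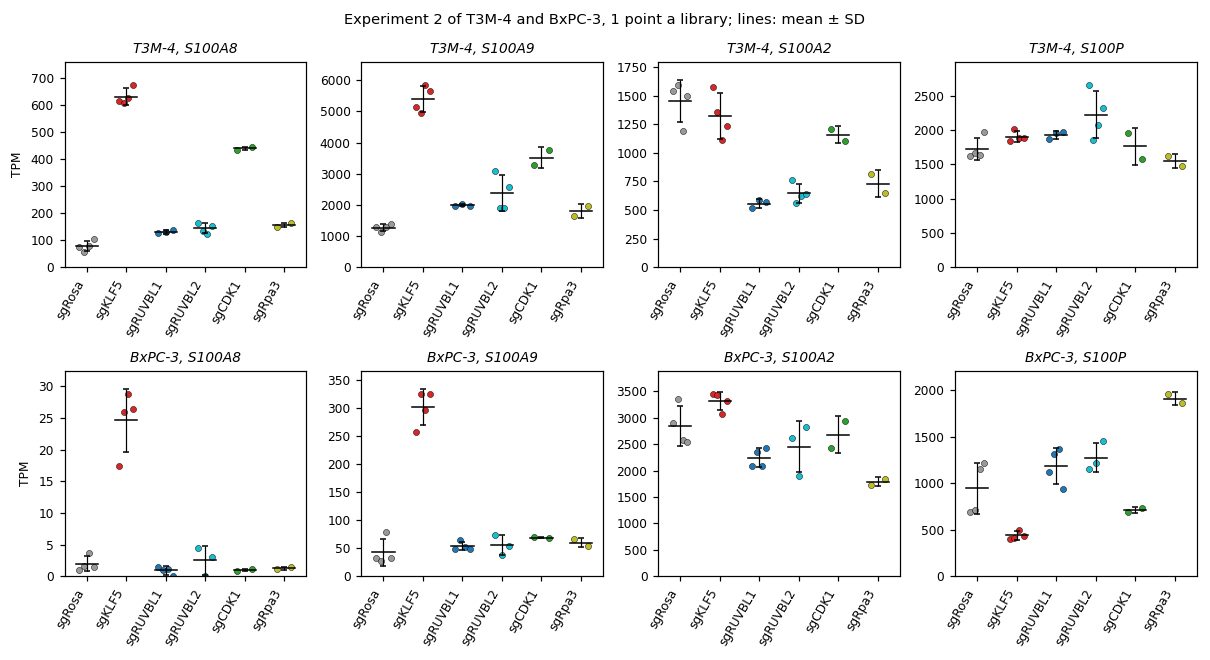
TPM of S100A8, S100A9, S100A2 and S100P in every library of experiment 2 in T3M-4 (top) and BxPC-3 (bottom), by sgRNA, with mean and SD. The sgKLF5 libraries sit above all others for S100A8 and S100A9 in both lines, the sgRUVBL1 and sgRUVBL2 libraries of T3M-4 sit between 513 and 760 TPM for S100A2, below all sgRosa libraries, and the sgRpa3 libraries of BxPC-3 sit above all others for S100P.

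The calprotectin genes rose in T3M-4 after either RUVBL knockout, but less than after sgKLF5. S100A8 held 136, 125 and 129 TPM after sgRUVBL1 (0.76, SE 0.14, adjusted p = 0.000203) and 165, 134, 123 and 154 after sgRUVBL2 (0.90, SE 0.13, adjusted p = 1.98e-05). S100A9 rose by 0.66 and 0.88, and the first of these calls was lost with median-of-ratios scaling (0.36, adjusted p = 0.0922). S100P rose after sgRUVBL2 by 0.36, a call also lost with that scaling (0.14, adjusted p = 0.430). In BxPC-3 neither calprotectin gene passed in either knockout with all libraries, with 0, 1.504, 0.939 and 1.17 and 4.50, 0 and 2.97 TPM of S100A8. S100A9 held 48.1, 49.1, 64.7 and 52.7 TPM after sgRUVBL1 (0.45, SE 0.24, adjusted p = 0.233) and 73.5, 38.0 and 53.6 after sgRUVBL2 (0.44, SE 0.26, adjusted p = 0.287), against the sgRosa values given above. Without sgRosa replicate 3, the highest control, S100A9 was called as a rise in both (0.78, adjusted p = 0.00499, and 0.77, adjusted p = 0.0144).

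The other changes in BxPC-3 were small. After sgRUVBL1, 3 of 10 members fell and none rose, where 8.29% of all genes tested rose and 7.67% fell: S100A14 (-0.39, SE 0.08, adjusted p = 0.00271), S100A2 (-0.34) and S100A6 (-0.20), of which S100A2 and S100A6 lost their calls with no filter, with scaling and with the replicate block. After sgRUVBL2 no member passed limma's test, where 9.76% of all genes tested passed in either direction. An unadjusted p under 0.05 was reached by 4 of 10 members and by 3380 of all 12380 genes. Without sgRosa replicate 3, which stood apart for S100A9, 1 member (S100A9) rose and 2 fell after sgRUVBL1, and 2 rose after sgRUVBL2, S100A9 among them.

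AsPC-1 had a different set. In experiment 2, 4 of 8 members rose after sgRUVBL1 and none fell, where 30% of all genes tested rose and 25.8% fell. S100A2 held 43.3, 45.9, 45.9 and 48.3 TPM against 32.4, 27.8, 23.6 and 26.2 (0.72, SE 0.10, adjusted p = 1.32e-05), S100A11 rose by 0.44, S100A16 by 0.35 and S100P by 0.55. The S100P call was lost with no filter (adjusted p = 0.0504) and when any of 4 libraries was left out, and without sgRosa replicate 3 its value was 0.35 (adjusted p = 0.0701). In experiment 3, S100A11 rose by 0.18 and S100A4 gave -0.46 after sgRUVBL1 (1 member up and 1 down of 8, where 36.6% of all genes tested rose and 15.2% fell). After sgRUVBL2, S100A11 rose by 0.20, and S100A4 (-0.42) and S100A6 (-0.30) fell, where 32.2% of all genes tested rose and 11% fell. All genes had a median of 0.16 and 0.13 in experiment 3, and with median-of-ratios scaling S100A11 stood at -0.00240 and 0.03. With that scaling no member rose and 4 fell after sgRUVBL1 (S100A4, S100A6, S100A14 and S100A16), and none rose and 2 fell after sgRUVBL2. S100A2 held 15.1, 15.5, 10.5 and 13.6 TPM against 12.6, 12.3, 11.1 and 12.3 in experiment 3, where it overlapped (0.16, adjusted p = 0.441).

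In CFPAC-1, S100A4 (0.71, SE 0.26, adjusted p = 0.035) and S100A6 (0.62, SE 0.19, adjusted p = 0.0176) rose after sgRUVBL1 and none of 8 fell, where 6.54% of all genes tested rose and 37.3% fell. S100A6 held 15595, 13012, 12373 and 12104 TPM against 9658, 4647, 10279 and 11966, the second control being the library that resembled sgKLF5. Without that library the changes were 0.30 (adjusted p = 0.0146) and 0.32 (adjusted p = 0.00663). Both calls were lost when only the compared groups were fitted (adjusted p = 0.103 and 0.0672), and that of S100A4 also with no filter (adjusted p = 0.0728). All genes had a median of -0.20, and with median-of-ratios scaling 5 members rose and none fell. After sgRUVBL2 no member passed limma's test, where 12.1% of all genes tested passed, and 3 of 8 members and 3522 of all 12748 genes had an unadjusted p under 0.05. Without the same library S100A4 rose (0.45) and S100A10 fell by 0.37. With scaling 1 member, S100A16, rose after sgRUVBL2. The sgRUVBL1 effect differed between the 4 lines for 6 of the 8 members other than the calprotectin genes, where 71.2% of all genes did, with S100A2 first (adjusted p = 4.69e-06), and for all 8 without the libraries that stood apart, where 69.6% did.

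A direct test of RUVBL2 against RUVBL1 knockout gave no called member in any line. Unadjusted p-values under 0.05 numbered 1 of 8 in AsPC-1, 1 of 10 in T3M-4, 1 of 10 in BxPC-3 and 0 of 8 in CFPAC-1. Over all genes they numbered 2444 of 12224, 1491 of 13246, 1719 of 12380 and 1875 of 12748. Limma called 3.71%, 0.0226%, 0.0323% and 0.0235% of all genes in the same order. The largest difference of a member in T3M-4 was that of S100A4, 0.32 (SE 0.17), with S100A8 at 0.14 (SE 0.14) and S100A2 at 0.21 (SE 0.13).

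The RUVBL knockouts were then set directly against KLF5 knockout, with the same sgKLF5 libraries for both. In AsPC-1 all 8 members tested were higher after sgRUVBL1 than after sgKLF5, and all 8 after sgRUVBL2, where 39.1% and 35% of all genes were higher and 19.4% and 17.1% lower. S100A11 differed by 1.00 and 1.01 and S100A16 by 0.86 and 1.06. In CFPAC-1 all 8 were also higher in both, where 10.3% and 8.51% of all genes were higher and 20.7% and 7.04% lower, with S100A4 by 2.01 and 2.16 and S100P by 1.23 and 1.52. These comparisons do not use the sgRosa libraries except through the estimate of the spread.

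In the basal-like lines the direction divided by gene. T3M-4 sgRUVBL1 libraries were higher than sgKLF5 for 3 of 10 members and lower for 4, where 30.5% and 15.3% of all genes were, and sgRUVBL2 libraries were higher for 4 and lower for 4, where 23.7% and 16% were. With median-of-ratios scaling 1 and 3 members were higher and 4 and 4 lower. BxPC-3 gave 5 higher and 3 lower for sgRUVBL1, where 18.8% and 25.2% were, and 6 higher and 3 lower for sgRUVBL2, where 13.6% and 26.4% were. S100A8 and S100A9 were lower in all 4. S100A8 had log2 differences of -2.27 and -2.13 in T3M-4 and -3.81 and -3.17 in BxPC-3. In BxPC-3 it averaged 0.902 TPM after sgRUVBL1 and 24.7 after sgKLF5. The value of -3.81 is therefore a description without a test, though S100A8 is still counted among the 3 lower. S100A2 was lower in all 4 as well, with log2 differences of -1.24 and -1.03 in T3M-4 and -0.57 and -0.46 in BxPC-3, the last losing its call with scaling (-0.34, adjusted p = 0.127). S100A11 was higher in all 4, by 0.54 to 0.71, and S100P was higher in BxPC-3 by 1.42 and 1.54.

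Knockout of CDK1, the mitotic kinase, and RPA3, a subunit of the single-strand DNA-binding complex RPA, both genes that dividing cells need, was measured with 2 libraries each. Over 10 comparisons 92 pairs were tested, of which 10 rose and 12 fell. In those with a called member 3.71% to 18.4% of all genes rose and 2.12% to 11.6% fell. In the others at most 0.654% passed in either direction. In T3M-4 experiment 2 the calprotectin genes rose after sgCDK1: S100A8 to 435 and 444 TPM (2.52, SE 0.16, adjusted p = 1.23e-07) and S100A9 to 3274 and 3746 TPM (1.47, SE 0.15, adjusted p = 2.04e-05). Both libraries lay above all sgRosa and all RUVBL libraries and below all sgKLF5 libraries of that experiment. These were the 2 members of 10 to rise and none fell, where 13% of all genes tested rose and 3.85% fell.

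After sgRpa3 in the same experiment, 3 of 10 members rose and 5 fell, where 18.4% of all genes tested rose and 6.2% fell. S100A8 held 149.6 and 162 TPM (1.03, SE 0.16, adjusted p = 0.000307), and S100A4 and S100A9 rose by 0.71 and 0.51. S100A2 held 813 and 646 TPM, below every sgRosa library (-0.997, SE 0.14, adjusted p = 0.000164). When only sgRpa3 and sgRosa libraries were fitted, the S100A8, S100A9, S100A4, S100A10, S100A11 and S100A14 calls were lost, and with median-of-ratios scaling 1 member, S100A8, rose and 5 fell. In T3M-4 experiment 1 no member passed limma's test after sgRpa3, nor did any gene (0% of all tested). Of all 12636 genes 189 had an unadjusted p under 0.05, and of the members 2 did, S100A8 and S100A9. Their libraries held 157 and 184 and 2463 and 2828 TPM, above both sgRosa libraries.

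In BxPC-3 experiment 2, S100P rose after sgRpa3, to 1958 and 1856 TPM from 689, 714, 1147 and 1217 (1.07, SE 0.20, adjusted p = 0.00115), and S100A2 and S100A16 fell (-0.66 and -0.23), where 9.12% of all genes tested rose and 11.6% fell. After sgCDK1, S100A4 rose (0.91, SE 0.17, adjusted p = 0.00282) and S100A6 fell (-0.48), where 3.71% of all genes tested rose and 2.12% fell. S100A8 did not pass after either, at 0.85 and 1.07 TPM after sgCDK1 and 1.099 and 1.42 after sgRpa3. S100A9 held 69.2 and 68.2 TPM after sgCDK1 (0.81, SE 0.30, adjusted p = 0.122) and 65.4 and 53.7 after sgRpa3 (0.60, SE 0.30, adjusted p = 0.166). Without sgRosa replicate 3 S100A9 was called as a rise after both (1.14, adjusted p = 0.0024, and 0.93, adjusted p = 0.003), and the counts were 2 up and 1 down after sgCDK1 and 2 up and 2 down after sgRpa3. In experiment 1 no member passed after sgRpa3, and limma called 0.307% of all genes. There 0 of 10 members and 1024 of all 12398 genes had an unadjusted p under 0.05.

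In AsPC-1, S100P rose after sgCDK1 (24.3 and 23.9 TPM, 1.12, SE 0.36, adjusted p = 0.0368) and 4 of 8 members fell, where 10.3% of all genes tested rose and 6.44% fell. S100A6 fell by 0.64, S100A4 by 0.52, S100A10 by 0.43 and S100A11 by 0.31. The S100P and S100A10 calls were lost with no filter and with the replicate block. After sgRpa3 no member passed limma's test, and 0.654% of all genes were called. Here 1 of 8 members and 1081 of all 12224 genes had an unadjusted p under 0.05. In CFPAC-1 the libraries labelled sgRpa3, which had the low CDK1 mRNA, held S100A14 at 86.7 and 84.2 TPM (0.88, SE 0.18, adjusted p = 0.00626) and S100P at 106 and 105 TPM (0.93, SE 0.27, adjusted p = 0.0367), both higher than sgRosa, where 8.17% of all genes tested rose and 3.39% fell. Without the library labelled sgRosa replicate 2 these differences were 0.69 and 0.63, both past the threshold. Both calls were lost when only the compared groups were fitted (adjusted p = 0.0747 and 0.154) and without either sgRpa3 library, and that of S100P also with no filter and with median-of-ratios scaling (adjusted p = 0.0696 and 0.0711). In those labelled sgCDK1 no member passed, with or without that library, and 0% of all genes were called. With all libraries 2 of 8 members and 1477 of all 12748 genes had an unadjusted p under 0.05.

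Knockout of CHD4, the ATPase of the NuRD complex, raised S100P, S100A14 and S100A2 in AsPC-1, where the 4 sgCHD4 libraries were compared with 4 sgRosa libraries of their own. S100P held 75.0, 91.5, 73.3 and 90.2 TPM against 20.1, 6.54, 16.2 and 15.8 (2.50, SE 0.25, adjusted p = 6.96e-06). S100A14 held 43.0, 46.4, 39.4 and 39.7 against 5.49, 7.03, 8.82 and 7.40 TPM (2.41, SE 0.12, adjusted p = 1.77e-08), and S100A2 71.4, 81.9, 64.7 and 68.7 against 12.8, 16.7, 19.0 and 17.9 TPM (2.05, SE 0.11, adjusted p = 5.06e-08). The lowest sgCHD4 library was above the highest sgRosa library for each of the 3. In total 5 of 8 members rose and 2 fell, where 23.3% of all genes tested rose and 26.7% fell, and the median log2 fold change of the members tested was 0.14, against -0.03 for all genes. The small rises of S100A6 (0.17) and S100A11 (0.10) were lost with no filter, with scaling and with the replicate block. S100A4 fell, from 9811, 9407, 9329 and 9554 to 6862, 7960.2, 6530.1 and 6777 TPM (-0.44, SE 0.05, adjusted p = 3.28e-05), and S100A10 fell by 0.25. S100A8 was listed at 0 in all 8 libraries. The sum of the 5 myeloid markers named above lay between 66.6 and 79.5 TPM in sgCHD4 and between 39.6 and 41.4 TPM in sgRosa, with LYZ at 69.7, 62.9, 75.4 and 64.8 against 36.4, 38.5, 33.3 and 34.6 TPM and PTPRC at 1.27, 0.82, 0.665 and 1.54 against 0.769, 0.152, 1.04 and 0.945 TPM, and its part in the result was not tested.

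SERPINB5 encodes the protein by which the study read KLF5 activity in a screen. After its knockout in AsPC-1 no member passed limma's test, 0.0343% of all genes were called, and the log2 differences of members lay between -0.11 for S100A16 and 0.12 for S100A2. An unadjusted p under 0.05 was found for 1 of 8 members and 802 of all 11645 genes.

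**Figure D4:**
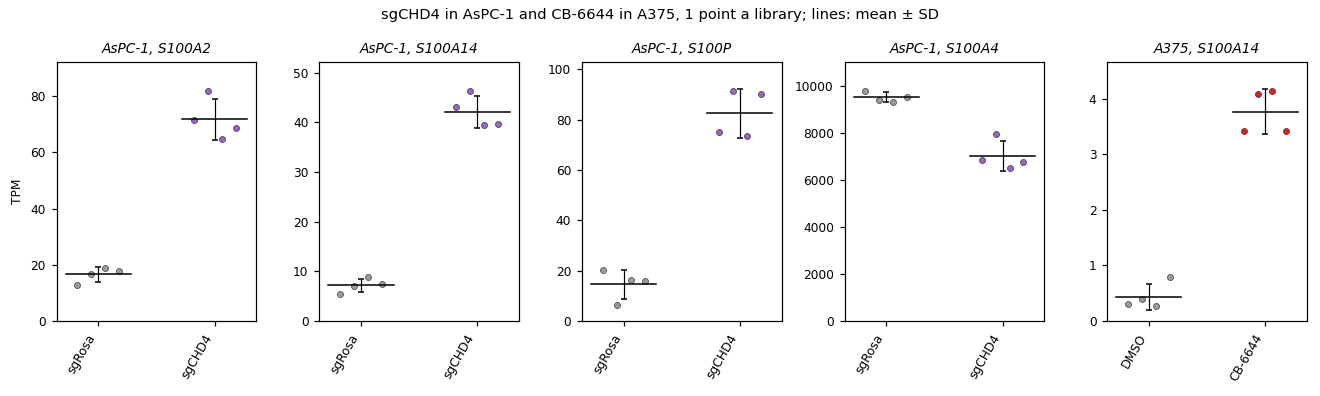
TPM of S100A2, S100A14, S100P and S100A4 in 4 sgCHD4 and 4 sgRosa libraries of AsPC-1, and of S100A14 in 4 CB-6644 and 4 DMSO libraries of A375, with mean and SD. The groups are apart in each panel, with S100A4 lower and the others higher in the treated libraries.

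CB-6644 was tested in AsPC-1 and T3M-4 cells that carried Lv-Empty, RUVBL1_A62T or RUVBL2_dF109, variants that resist the drug, with 3 CB-6644 libraries and 1 DMSO library per vector. The 3 DMSO libraries of a line served together as control. They differ by vector: in T3M-4 the DMSO libraries of Lv-Empty, RUVBL1_A62T and RUVBL2_dF109 held S100A8 at 363, 122 and 182 TPM and S100A10 at 525.9, 980.4 and 841 TPM. With 1 library each, vector and library cannot be told apart, so the calls were also made against the DMSO library of the same vector alone, whose spread is assumed to be that of the other groups.

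In T3M-4 Lv-Empty cells 3 of 10 members were lower in CB-6644 and none higher, where 19.1% of all genes tested rose and 15.2% fell. S100A2 held 1111, 1162 and 1266 TPM, below DMSO libraries at 1455, 1428 and 1522 (-0.32, SE 0.07, adjusted p = 0.00392), and stayed called against its own vector, -0.30 (adjusted p = 0.016). S100A10 held 534, 443 and 359 TPM (-0.78, SE 0.19, adjusted p = 0.00962) and S100A11 2027, 1911 and 1615 TPM (-0.49, SE 0.12, adjusted p = 0.011). S100A10 overlapped the DMSO library of its own vector and S100A11 lay just below it, and against that library they were -0.26 (adjusted p = 0.261) and -0.21 (adjusted p = 0.218). S100A8 was the reverse, not past the threshold against the 3 DMSO libraries (-0.69, adjusted p = 0.0752) and -1.55 (adjusted p = 2.39e-05) against its own, as were S100A9 and S100A14 (-0.49 each against their own vector). The CB-6644 libraries held S100A8 at 114, 122 and 136 TPM, close to DMSO in RUVBL1_A62T cells.

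Between vectors in CB-6644, where each group has 3 libraries, S100A10 held 857, 931 and 893 TPM in RUVBL1_A62T cells and 862, 872 and 908 in RUVBL2_dF109 cells, all above the Lv-Empty libraries (1.02, SE 0.19, adjusted p = 0.00204, and 1.00, SE 0.19, adjusted p = 0.00564). S100A11 was higher by 0.61 and 0.63, calls that were lost with median-of-ratios scaling (adjusted p = 0.0811 and 0.0641). For RUVBL1_A62T 2 members of 10 were higher and 2 lower, where 41.4% of all genes were higher and 9.21% lower. For RUVBL2_dF109 2 were higher and none lower, where 29.8% and 4.86% were. The lower members of RUVBL1_A62T cells were S100A4 (-0.83) and S100A6 (-0.32), neither called with no filter. The Lv-Empty library was also the lowest of the 3 DMSO libraries for S100A10. With median-of-ratios scaling 1 member was higher and 3 lower for RUVBL1_A62T, and 1 higher and 1 lower for RUVBL2_dF109.

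Against DMSO, T3M-4 RUVBL1_A62T cells had 4 of 10 members lower and none higher, where 45.4% of all genes tested were higher and 4.6% lower, and RUVBL2_dF109 cells had 2 lower and none higher, where 34.3% and 3.34% were. S100A2 was lower in both variants, at 1074, 1101 and 1052 TPM (-0.45, SE 0.07, adjusted p = 0.00424) and 1093, 1027 and 1007 TPM (-0.49, SE 0.07, adjusted p = 0.00134). Against their own DMSO library these were -0.41 (adjusted p = 0.0495) and -0.55 (adjusted p = 0.00155). S100A2 was thus lower in CB-6644 with all 3 vectors, and the Lv-Empty call was lost when only the compared groups were fitted (adjusted p = 0.0727). S100A14 was lower in both variants (-0.37 and -0.47), and S100A8 (-1.02) and S100A9 (-0.41) in RUVBL1_A62T cells. Of these, S100A14, S100A8 and S100A9 of RUVBL1_A62T cells lost their calls against their own DMSO library. In RUVBL2_dF109 cells 5 members were lower against the own library: S100A2, S100A14 with -0.40 (adjusted p = 0.00563), S100A8 with -0.60 (adjusted p = 0.00172), S100A16 with -0.31 (adjusted p = 0.00696) and S100P with -0.33 (adjusted p = 0.0331). With median-of-ratios scaling 5 members were lower in each variant, where all genes had a median of 0.33 and 0.29 before it.

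**Figure D5:**
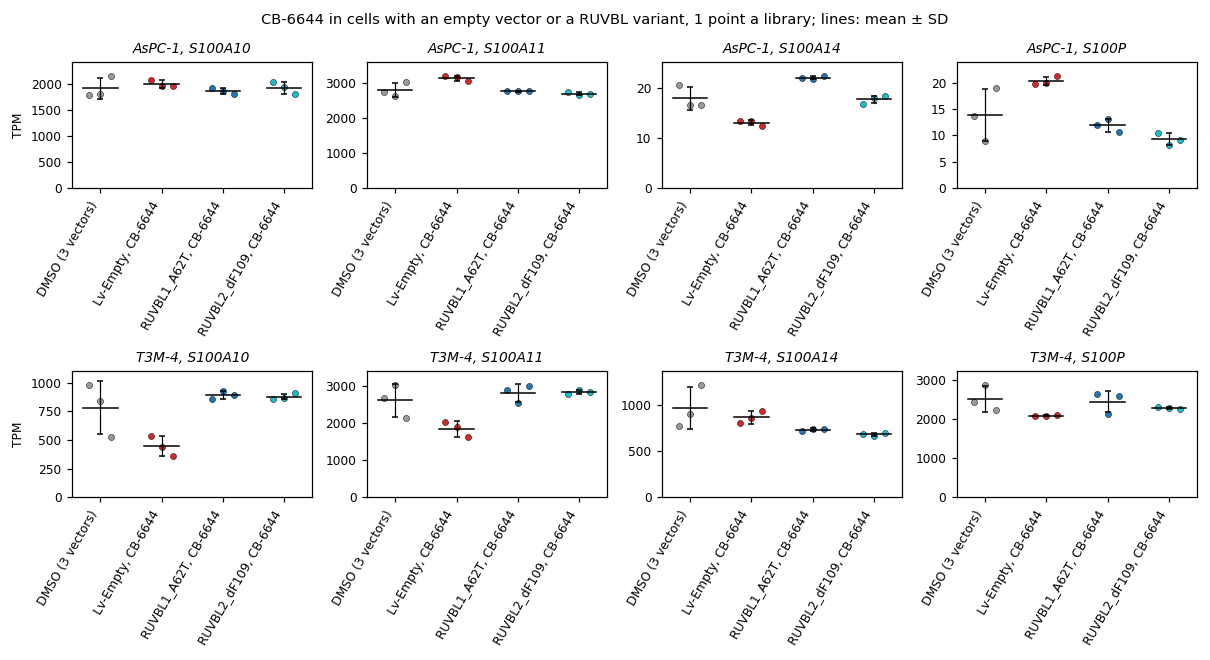
TPM of S100A10, S100A11, S100A14 and S100P in AsPC-1 (top) and T3M-4 (bottom): DMSO libraries of the 3 vectors together, then CB-6644 libraries by vector, with mean and SD. In T3M-4 the Lv-Empty CB-6644 libraries sit between 359 and 534 TPM for S100A10, below both variants, and in AsPC-1 they sit between 12.5 and 13.5 TPM for S100A14, below all other libraries.

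In AsPC-1 Lv-Empty cells 3 of 9 members were higher in CB-6644 and 1 lower, where 47.2% of all genes tested rose and 17.2% fell, and the median log2 fold change of the members tested was 0.17, against 0.19 for all genes. S100A14 held 13.4, 13.5 and 12.5 TPM against 16.7, 20.6 and 16.6 in DMSO (-0.42, SE 0.08, adjusted p = 0.000685), and -0.33 (adjusted p = 0.00562) against its own vector. S100P held 19.8, 20.0 and 21.3 TPM against 18.9, 13.8 and 8.93 (0.58, SE 0.19, adjusted p = 0.0165), but 0.10 (adjusted p = 0.548) against its own vector. The small differences of S100A6 (0.21) and S100A11 (0.17) turned to -0.0600 and -0.103 with median-of-ratios scaling and were lost against the own vector. With scaling no member was higher and 1, S100A14, was lower.

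In AsPC-1 variant cells few members passed against the 3 DMSO libraries. S100A14 was higher in RUVBL1_A62T cells (0.29, SE 0.08, adjusted p = 0.0365), the only call of 9, where 10.8% of all genes were higher and 1.98% lower, and it was lost against the own vector, 0.10 (adjusted p = 0.483). In RUVBL2_dF109 cells no member passed limma's test, and 33.4% of all genes were called. Among members 5 of 9 had an unadjusted p under 0.05, and among all genes 5605 of 12257. Against its own DMSO library S100A4 was lower in these cells, -0.27 (adjusted p = 0.0253). With median-of-ratios scaling no member passed in RUVBL1_A62T cells and 5 were lower in RUVBL2_dF109 cells (S100A2, S100A6, S100A11, S100A16 and S100P). Directly against Lv-Empty in CB-6644, S100A14 was higher in both variants (0.71, SE 0.08, adjusted p = 2.21e-05, and 0.41, SE 0.08, adjusted p = 0.00133) and S100P lower (-0.73, SE 0.19, adjusted p = 0.00619, and -1.06, SE 0.19, adjusted p = 0.000638). For RUVBL1_A62T 1 member was higher and 3 lower, where 18.9% and 32.3% of all genes were, and for RUVBL2_dF109 1 and 5, where 20.9% and 26.3% were. With scaling 1 was higher and 1 lower for RUVBL1_A62T and 1 and 4 for RUVBL2_dF109. The DMSO library of Lv-Empty was also the highest of the 3 for S100P.

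In the other 4 lines, with 4 CB-6644 and 4 DMSO libraries each, most genes passed the threshold, and 8 of 32 member pairs rose and 12 fell. Of all genes tested, 47.2% to 53.9% rose and 24% to 29.7% fell. T84 had 3 members up and 4 down of 9, where 47.2% of all genes tested rose and 24.2% fell. S100A14 held 584, 574, 582 and 572 TPM against 835, 833, 859 and 800.0 (-0.52, SE 0.03, adjusted p = 2.05e-09), and S100A4 203, 219, 189 and 218 against 267, 266, 298 and 274 TPM (-0.41, SE 0.05, adjusted p = 2.99e-06). S100A16 and S100A2 fell by 0.28 and 0.20, and S100P rose by 0.24, a call lost with scaling (0.05, adjusted p = 0.547). S100A10 and S100A11, which rose by 0.18 and 0.10, stood at -0.00890 and -0.0853 with scaling, neither of them called, so that no member rose and 4 fell.

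A375, the melanoma line, had 5 members up and 1 down of 8, where 51.5% of all genes tested rose and 29.7% fell, and the median log2 fold change of the members tested was 0.16, against 0.16 for all genes. S100A14, almost absent in DMSO, held 3.41, 4.09, 4.14 and 3.41 TPM in CB-6644 and 0.313, 0.387, 0.275 and 0.784 in DMSO (log2 fold change 1.74). It passed the filter only through the CB-6644 libraries, so this value is a description without a test, though S100A14 is still counted among the 5 members up. S100A11 held 1219, 1195, 1228 and 1202 against 998, 979, 943 and 976 TPM (0.31, SE 0.02, adjusted p = 1.23e-07), and S100A4 596, 589.7, 578 and 599 against 700.4, 686, 875 and 829.4 TPM (-0.38, SE 0.07, adjusted p = 0.000307). The groups of these 3 genes did not overlap. S100A2, S100A6 and S100A10 rose by 0.20, 0.17 and 0.14 and stood at -0.0173, -0.0545 and -0.0810 with scaling, and the last of these was then called as a fall (adjusted p = 0.00644). With scaling 2 members rose, S100A11 and S100A14, and 4 fell.

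H1048 had 3 members down and none up of 8, where 53.9% of all genes tested rose and 24% fell. S100A2 held 5.59, 3.79, 3.91 and 5.82 TPM against 6.94, 10.5, 7.82 and 8.41 (-0.71, SE 0.14, adjusted p = 0.00045). The calprotectin genes of this line were low and fell slightly, S100A8 by 0.33 and S100A9 by 0.42, both lost with no filter. RH30 had 4 members down and none up of 7, where 50.4% of all genes tested rose and 27.3% fell. S100A2 held 497, 506, 459.9 and 449 TPM against 593, 591, 603 and 584 (-0.31, SE 0.04, adjusted p = 4.34e-06), and S100A16, S100A10 and S100A11 fell by 0.21, 0.15 and 0.06. With scaling 4 members fell in H1048 and 5 in RH30, and none rose in either.

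The CB-6644 effect differed between these 4 lines for 4 of 10 members, where 86.2% of all genes did (limma F test): S100A14 (adjusted p = 4.39e-10), which was under 1 TPM in both groups of H1048 and in DMSO in A375, S100A2 (adjusted p = 1.89e-06), S100A10 (adjusted p = 4.20e-05) and S100A16 (adjusted p = 0.0265). The S100A16 call was lost with a pseudocount of 0.1 (adjusted p = 0.242) and with the replicate block (0.0837). S100A2 fell in T84, H1048 and RH30 and was higher in A375, the sign that turned with scaling.

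Other genes of the family were read from a list of 10 (S100A1, S100A3, S100A5, S100A7, S100A7A, S100A12, S100A13, S100B, S100G and S100Z), of which at most 6 passed the filter in a comparison. S100A7, psoriasin, a squamous member, was listed at 0 in every sgRosa library of BxPC-3 and held 5.70, 5.61, 8.98 and 9.01 TPM in the sgKLF5 libraries of experiment 2 and 10.00, 17.0, 18.3 and 20.6 in those of experiment 1, which is given without a fold or a test because it passed the filter only through sgKLF5. In T3M-4 experiment 2, S100A7 rose by 1.69 and S100A12, a further alarmin, by 1.80. S100A7 and S100A7A are near-identical, so reads could be divided between them. After sgKLF5 in AsPC-1, S100A13 and S100A5 fell in both experiments, S100A13 with log2 fold changes of -0.82 and -0.66 and S100A5 with -1.73 and -1.097, and these were the 2 that passed of the 4 tested. In experiment 3 S100A5 averaged 0.721 TPM after sgKLF5 and 2.64 after sgRosa. Its value of -1.097 is therefore a description without a test, though it is still counted among the 2.

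S100A13 rose in CB-6644 in all 6 lines treated: by 1.05 in AsPC-1 and 1.15 in T3M-4 with Lv-Empty, 0.74 in T84, 1.65 in A375, 0.90 in H1048 and 0.95 in RH30. In A375 it held 1474, 1531, 1469 and 1478 TPM against 431, 456, 515 and 492. Against Lv-Empty in CB-6644 it was lower in both variants of AsPC-1 (-0.84 and -0.87) and of T3M-4 (-0.68 and -0.45). S100A13 overlaps S100A1 in the annotation, and S100A1 also rose in T84, A375, H1048, RH30 and AsPC-1 Lv-Empty cells, so without strand their reads may not be separate. S100B, a melanocyte and glial marker, fell in A375 (-0.86, SE 0.10, adjusted p = 1.29e-05).

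Of 12 partner genes, 11 had a row. ANXA2, the annexin held by S100A10, fell after sgKLF5 in AsPC-1 (-0.34 and -0.73) and BxPC-3 (-0.94 and -0.19), as S100A10 did. In AsPC-1 experiments 1 and 3, 1 and 1 of 11 partners rose and 4 and 2 fell, where 17.1% and 8.81% and then 15.4% and 12.3% of all genes rose and fell. In BxPC-3 experiments 1 and 2, 0 and 2 rose and 4 and 4 fell, where 8.09% and 8.1% and then 21% and 13.6% did. EZR, the ezrin partner of S100P, fell in both BxPC-3 experiments, by 0.36 each. In T3M-4 experiment 2, 3 partners rose and 2 fell, where 23.4% and 11.2% did, and in SUIT-2 none of 11 passed, where 2.94% and 1% did. In CB-6644 S100PBP, the S100P-binding protein, rose in T84, A375, H1048 and RH30 by 0.44 to 0.60.

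Across the 59 group means, members also varied together, which is given as a description because groups share lines, experiments and controls. S100A14 and S100P had a Pearson r of 0.98 on log2(TPM + 1), S100A11 and S100A16 0.97, S100A8 and S100A9 0.97, and S100A6 and S100A16 0.94. S100A4 went against S100A9 (r = -0.65). Among 13861 genes the one most like S100P was S100A14 and the one most like S100A8 was S100A9, while NLRP2 was most like S100A9 (0.97), ARPC1B most like S100A4 (0.96), FST most like S100A2 (0.93) and CAPG most like S100A10 (0.93).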

How the data were processed

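RNA from 183 libraries of 9 human cancer lines was sequenced by the authors as single-end reads of poly-A selected TruSeq libraries, quantified with kallisto against hg38 (version not given in the sources used here) and summed to genes with tximport. The authors deposited TPM (transcripts per 1000000) in 8 tables. Their methods name a removal of transcripts of low abundance together with the DESeq2 step, at a limit that is not stated. Whether it was applied to the TPM is not stated either. TPM hold no read counts, so the depth of a library is unknown and no counting interval is given. The strand setting of the counting is not given in the sources used here.

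Groups came from the labels. The deposited TPM were analysed as log2(TPM + 1) with limma 3.58.1 in R 4.3.3, over genes averaging 1 TPM or more in the libraries of 1 line and experiment, all groups of which shared 1 estimate of the spread, at a Benjamini-Hochberg adjusted p under 0.05. Differences between lines used an F test over the same contrasts. The fitting code was tested on simulated data before use. The members and the family, partner and marker lists were chosen with earlier results of these data known. All 10 members were reported by value, other genes by count with values for those named, and for each member the genes most like it over the 59 group means. Alternatives were a pseudocount of 0.1, a mean of at least 5 TPM, no filter, median-of-ratios scaling, only the compared groups, the DMSO library of the same vector alone, the replicate number as a block and each library left out. Promoter windows came from RefSeq (GRCh38.p14). Tables and figures were made with Python 3.11.15.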

Additional observations from a re-analysis of the deposited data

Results flagged for a closer look

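Of 252 groups of a member in 4 to 10 libraries, 13 held a library far from the others by Dixon's test, and chance flags about 1 in 20 such groups. AsPC-1 sgKLF5 experiment 1 replicate 6 held S100A2 at 42.9 TPM, where the other 5 libraries lay between 8.93 and 14.3, and S100P at 62.4 TPM. The library labelled CFPAC-1 sgRosa replicate 2 held S100A2 at 25.6 and S100A4 at 36.9 TPM, where the other controls held at least 44.1 and 109. T3M-4 sgKLF5 experiment 1 replicate 2 held S100A4 at 28.8 and S100A9 at 9410.4 TPM. BxPC-3 sgRosa experiment 2 replicate 3 held S100A9 at 78.9 TPM, against 27.5 to 32.6 in the other 3.

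The other library values that stood apart were S100A4 at 51.8 TPM in BxPC-3 sgRUVBL1 experiment 2 replicate 1 and at 14.6 in RH30 CB6644 replicate 3, and S100A6 at 1732 in BxPC-3 sgKLF5 experiment 2 replicate 1. S100A10 was at 528 in T3M-4 sgRUVBL2 experiment 2 replicate 1, S100A16 at 322 in SUIT-2 sgKLF5 replicate 3 and S100P at 1971 in T3M-4 sgRosa experiment 2 replicate 4.

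The effect of sgKLF5 differed between 5 lines by the limma F test (adjusted p) for S100A2 (0.00154), S100A4 (5.52e-06), S100A6 (8.48e-06), S100A8 (1.59e-15), S100A9 (1.26e-10), S100A11 (0.0387), S100A14 (5.25e-05), S100A16 (2.93e-06) and S100P (1.53e-08). S100P averaged 0.527 TPM after sgKLF5 in SUIT-2. S100A8 and S100A9 were at or near 0 TPM in AsPC-1, SUIT-2 and CFPAC-1, so for these 2 genes the test does not compare the lines. That of sgRUVBL1 differed between 4 lines for S100A2 (4.69e-06), S100A4 (0.0193), S100A6 (0.00179), S100A8 (0.00334), S100A11 (0.00611), S100A14 (0.000207) and S100A16 (0.000623), and the same limit holds for S100A8 in AsPC-1 and CFPAC-1. That of CB-6644 differed between T84, A375, H1048 and RH30 for S100A2 (1.89e-06), S100A10 (4.2e-05), S100A14 (4.39e-10), low in the last 3, and S100A16 (0.0265).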

How the results depend on the processing

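Of the 228 called pairs of member and comparison, 151 kept direction and threshold under every alternative that gave a value, and the cause of the other changes was not tested. A pseudocount of 0.1 cost 2 calls, a mean of at least 5 TPM 0 of 226, no filter 21, median-of-ratios scaling 30, only the compared groups 28 of 190 and own-vector DMSO 9 of 14. Leaving out 1 library cost 49 pairs their call at least once and reversed 0. Scaling turned the sign of 8 pairs: S100A11 after sgRUVBL1 in AsPC-1 experiment 3 (-0.00240), S100A6 and S100A11 with CB-6644 in AsPC-1 Lv-Empty cells (-0.0600 and -0.103), S100A10 and S100A11 in T84 (-0.00890 and -0.0853), and S100A2, S100A6 and S100A10 in A375 (-0.0173, -0.0545 and -0.0810). Scaling also moved the share of higher among all called genes, from between 20.1% and 74.6% to between 44.5% and 59.4% over the sgKLF5 comparisons and from between 84.4% and 91.1% to between 35.0% and 38.3% over the CB-6644 comparisons of variant cells.

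Counts of calls moved by over 1.5 times as follows. After CHD4 or SERPINB5 knockout 5 higher became 3 with no filter and with scaling. In CB-6644 empty-vector cells 3 higher became 0 with scaling and with own-vector DMSO, and 4 lower became 1 with only the compared groups. In variant cells 1 higher became 0 with no filter, scaling, only the compared groups and own-vector DMSO, and 6 lower became 15 with scaling and 2 with only the compared groups. In T84, A375, H1048 and RH30 together 8 higher became 2 with scaling.

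With 1 library left out at a time, higher and lower calls ranged from 8 to 10 and 41 to 47 after KLF5 knockout, 11 to 16 and 16 to 19 after RUVBL1 or RUVBL2 knockout, 8 to 12 and 10 to 14 after CDK1 or RPA3 knockout, 3 to 5 and 2 to 2 after CHD4 or SERPINB5 knockout, and 45 to 52 and 14 to 14 between knockouts. They ranged from 1 to 6 and 4 to 6 in CB-6644 empty-vector cells, 0 to 1 and 4 to 9 in variant cells, 6 to 7 and 8 to 10 between variant and empty-vector cells, and 8 to 9 and 10 to 13 in the other 4 lines. The empty-vector count of 6 came without the AsPC-1 Lv-Empty DMSO library and that of 1 without RUVBL2_dF109 DMSO, the variant count of 9 without RUVBL1_A62T or RUVBL2_dF109 DMSO of AsPC-1 and that of 4 without T3M-4 RUVBL1_A62T CB6644 replicate 1 or 3, and the CHD4 count of 3 without sgCHD4 replicate 1 or sgRosa replicate 1, 2 or 3. The variant count of 0 came without any of the 3 AsPC-1 RUVBL1_A62T CB6644 libraries or RUVBL2_dF109 DMSO. Leaving CFPAC-1 out of the CDK1 and RPA3 comparisons, an alternative chosen after seeing the data, left 8 higher and 12 lower. Leaving the libraries that stood apart out of the test between lines, chosen likewise, moved the members that differed in the KLF5 effect from 9 to 10.

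The labels number replicates alike in the groups, but same-numbered libraries did not deviate together (median r between -0.29 and 0.06 by experiment), so the numbers were not taken as pairs. With the replicate number as a block, 11 of 214 pairs lost their call, S100A11 after sgKLF5 in SUIT-2 among them (adjusted p = 0.0988), the higher calls after CHD4 or SERPINB5 knockout went from 5 to 3, and the lower calls between variant and empty-vector cells from 10 to 17. No read depth is known, so no member near 0 TPM can be called absent.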

Other observations

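S100A5 (calcium-binding, and overlapping S100A4 in the annotation) rose with CB-6644 in AsPC-1 Lv-Empty cells (0.99), T84 (0.53) and A375 (0.62). There S100A4 gave, in the same order, -0.05 (not past the threshold), -0.41 and -0.38. In T3M-4 S100A5 averaged 0.897 TPM in the 3 DMSO libraries and 2.88 in CB-6644 with Lv-Empty. Its value of 1.02 is a description without a test, and S100A4 gave 0.69 (not past the threshold). Reads of such overlapping genes may not be separate. After sgCHD4 in AsPC-1, S100A3 (1.97), S100A1 (1.24) and S100A13 (0.73) rose along with S100A2, S100A14 and S100P. EZR, the ezrin gene, fell after sgKLF5 in T3M-4 experiment 2 (-0.24) and rose after sgRUVBL1 (0.63) and sgRUVBL2 (0.59) of the same experiment.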
